A study of Caenorhabditis elegans with 2 samples.

Results

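The spliced leader RNA genes of Caenorhabditis elegans were examined for chromatin sites of ZFR-1, a zinc finger protein whose gene is Y95B8A.8 (zfr-1). They were taken as the genes of the WBcel235 annotation whose symbol starts with sls-1. or sls-2., which gave 30 of the 46890 genes on the nuclear chromosomes, 12 for SL1 and 18 for SL2. The protein carried a TY1, EGFP and 3xFLAG tag inserted by CRISPR at the endogenous locus on chromosome I (allele st12277, strain RW12277), so every animal examined was of that genotype. Chromatin was precipitated with an antibody against GFP from whole young adults at 63 hours, synchronised as starved first-stage larvae, as 2 biological replicates of 1 group. Neither a control library nor untagged animals were analysed here, and the tissue behind a site cannot be read from whole animals.

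In nematodes the first bases of many messenger RNAs do not come from their own gene. A short capped leader is cut from a separate spliced leader RNA and joined to the 5′ end of the message by trans-splicing. SL1 goes to a large set of messages, while SL2 goes mainly to the downstream genes of operons, where it lets each message of a polycistronic transcript have its own cap. The spliced leader RNAs are small nuclear RNAs bound by Sm proteins. Their genes are transcribed by RNA polymerase II from short promoters with a proximal sequence element, which the SNAP complex binds. SL1 genes alternate with 5S ribosomal RNA genes in a tandem array, whereas SL2 genes are dispersed.

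The RNAs themselves are shown first, since the families differ in how alike their copies are. Each runs 5′ to 3′ in the sense of the RNA, from the RefSeq sequence of assembly WBcel235, and capitals mark the leader up to the splice donor. The first had the strongest site of the set, the second the next strongest, sls-2.10 had no peak in any list called on both replicates, and sls-1.10 stands for the SL1 array. They lie at chrII:5844865-5844974 (plus strand), chrIII:12250465-12250575 (plus strand), chrIV:9130721-9130829 (minus strand) and chrV:17120694-17120791 (minus strand).
sls-2.1: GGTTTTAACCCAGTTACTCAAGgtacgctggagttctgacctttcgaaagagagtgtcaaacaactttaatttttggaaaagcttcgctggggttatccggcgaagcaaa
sls-2.8: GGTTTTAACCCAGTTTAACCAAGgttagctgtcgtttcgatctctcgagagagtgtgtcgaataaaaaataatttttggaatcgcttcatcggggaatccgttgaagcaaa
sls-2.10: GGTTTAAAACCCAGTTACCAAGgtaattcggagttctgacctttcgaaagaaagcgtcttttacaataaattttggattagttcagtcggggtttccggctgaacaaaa
sls-1.10: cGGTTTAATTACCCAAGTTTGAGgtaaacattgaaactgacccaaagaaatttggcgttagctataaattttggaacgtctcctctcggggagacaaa

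The 10 SL1 genes annotated with 98 bases were identical in RNA sequence. Their 100 bases upstream were 97.0% to 100% identical over the 45 pairs. The annotation of sls-1.1 and sls-1.5 covers 68 bases and leaves out the leader. The SL2 RNAs were more diverse, with an identity of 65.5% to 99.1% over 153 pairs (median 75.5%), and their 100 upstream bases were 40.0% to 96.0% identical (median 50%). The identity that unrelated stretches reach by this measure is not given here, so a value of 50% does not by itself show likeness. The leader of sls-2.1 was shared by sls-2.2, sls-2.3 and sls-2.4. Another was shared by sls-2.5, sls-2.6 and sls-2.7, a further pair by sls-2.10 and sls-2.11, and a last pair by sls-2.12 and sls-2.13.

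Peaks were called at SL2 genes and at no SL1 gene. For 9 of the 12 SL1 genes no stretch of 50 bases occurs only once in the assembly, so a missing call there does not show that a site is missing. In the thresholded list of both replicates, which holds 1694 peaks with a score of at least 830 on a scale that follows the irreproducible discovery rate (IDR) and ends at 1000, 10 of 18 SL2 genes (55.6%) and 0 of 12 SL1 genes had a summit within 250 bp of the RNA. The 10 genes were sls-2.1, sls-2.2, sls-2.4, sls-2.5, sls-2.8, sls-2.14, sls-2.15, sls-2.16, sls-2.17 and sls-2.18, each with a peak of its own. Over the whole set the share was 10 of 30 (33.3%), against a background of 4.14% of all annotated genes and 2.10% of the 23530 other genes of at most 200 bp. Among other classes of small RNA genes the share was 16.2% of 99 other snRNA genes, 22.9% of 612 tRNA genes, 19.9% of 346 snoRNA genes and 0 of 16 5S ribosomal RNA genes. As 5S genes alternate with SL1 genes and their repeated sequence was not measured, missing calls there do not show that sites are missing. The members were chosen with results of these data known, so these shares are given without a test.

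**Figure D1:**
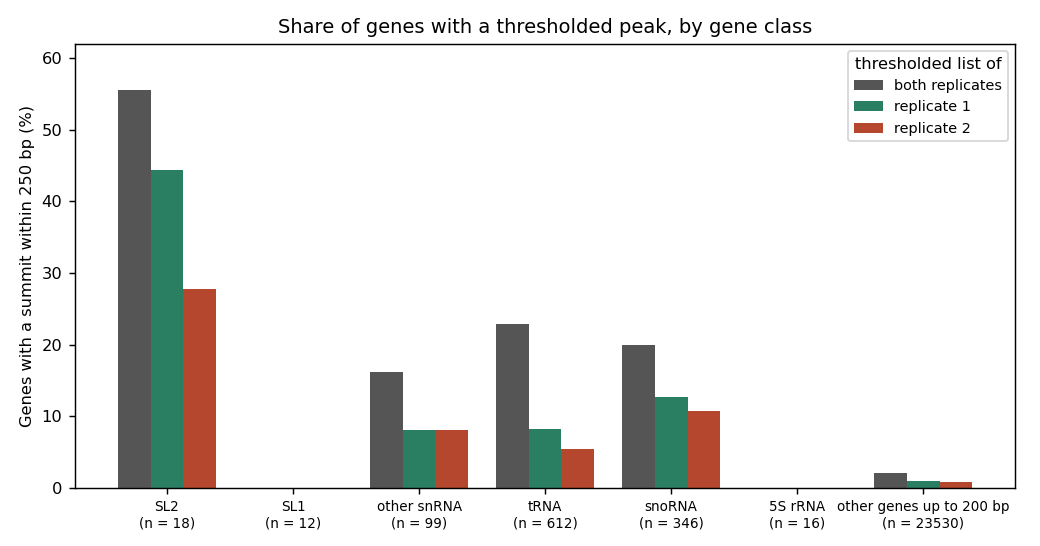
Percentage of genes (vertical axis) with a summit within 250 bp, by gene class and thresholded list. Grey bars stand for the list of both replicates, green for replicate 1 and red for replicate 2, n is the number of genes, and other genes up to 200 bp include the small RNA classes beside SL1 and SL2. SL2 genes stand at 55.6%, 44.4% and 27.8%, and SL1 and 5S rRNA genes at 0 in each list.

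The level of a site was read from the signal of the authors' peak caller, a value that is never negative. Sites are compared with each other within 1 list. Ratios between the replicates are also given below, with no added scaling for depth, which is unknown. At sls-2.1 the signal was 125 in replicate 1 and 130 in replicate 2, and 256 in the list of both, at rank 33 of 1694. At sls-2.8 it was 118 and 121, and 229 in the list of both, at rank 52. These 2 genes led the set in every list, and their ranks in the ranked lists of the replicates were close (50 and 43 for sls-2.1, 56 and 59 for sls-2.8, among 46119 and 44169 peaks).

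The next sites were at sls-2.4, sls-2.2 and sls-2.5. The signal at sls-2.4 was 106 in replicate 1 and 59.5 in replicate 2, and 174 in the list of both. At sls-2.2 it was 75.7 and 89.0, and also 174 in the list of both. At sls-2.5 it was 63.4 and 48.6, and 114 in the list of both. The order of sls-2.4 and sls-2.2 was opposite in the replicates, so these neighbours do not differ beyond the spread between replicates. The 5 genes named so far were the ones with a thresholded peak in each single replicate. Taken separately, replicate 1 had such a peak at 8 of 30 and replicate 2 at 5 of 30. The shares were 1.84% and 1.7% of all annotated genes, and 0.884% and 0.773% of the other genes of at most 200 bp. The share of those other genes with a thresholded peak in each replicate was not counted, and can be at most 0.773%. For all annotated genes it can be at most 1.7%.

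The remaining 5 sites were weaker. At sls-2.14 the signal was 48.2 in replicate 1 and 45.8 in replicate 2 (92.9 in the list of both), and at sls-2.18 it was 55.3 and 32.2 (90.7). At sls-2.15 it was 53.2 and 28.8 (86.6). These 3 genes passed the threshold in replicate 1 alone, with scores of 347 to 477 in replicate 2. At sls-2.16 the signal was 40.6 and 38.0 (77.8), with scores of 547 and 714, so neither replicate passed by itself. At sls-2.17 replicate 1 had no summit within 250 bp even in its ranked list, replicate 2 had a signal of 30.7 with a score of 196, and the list of both had 70.5 with a score of 1000. The peak at sls-2.17 was also absent from the conservative list, which held the other 9. That is 9 of 30, against 3.81% of all annotated genes and 1.98% of other genes of at most 200 bp. A shorter ranked list of both replicates, with 86749 peaks, goes with the conservative list. It held no summit within 250 bp of sls-2.17 either.

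**Figure D2:**
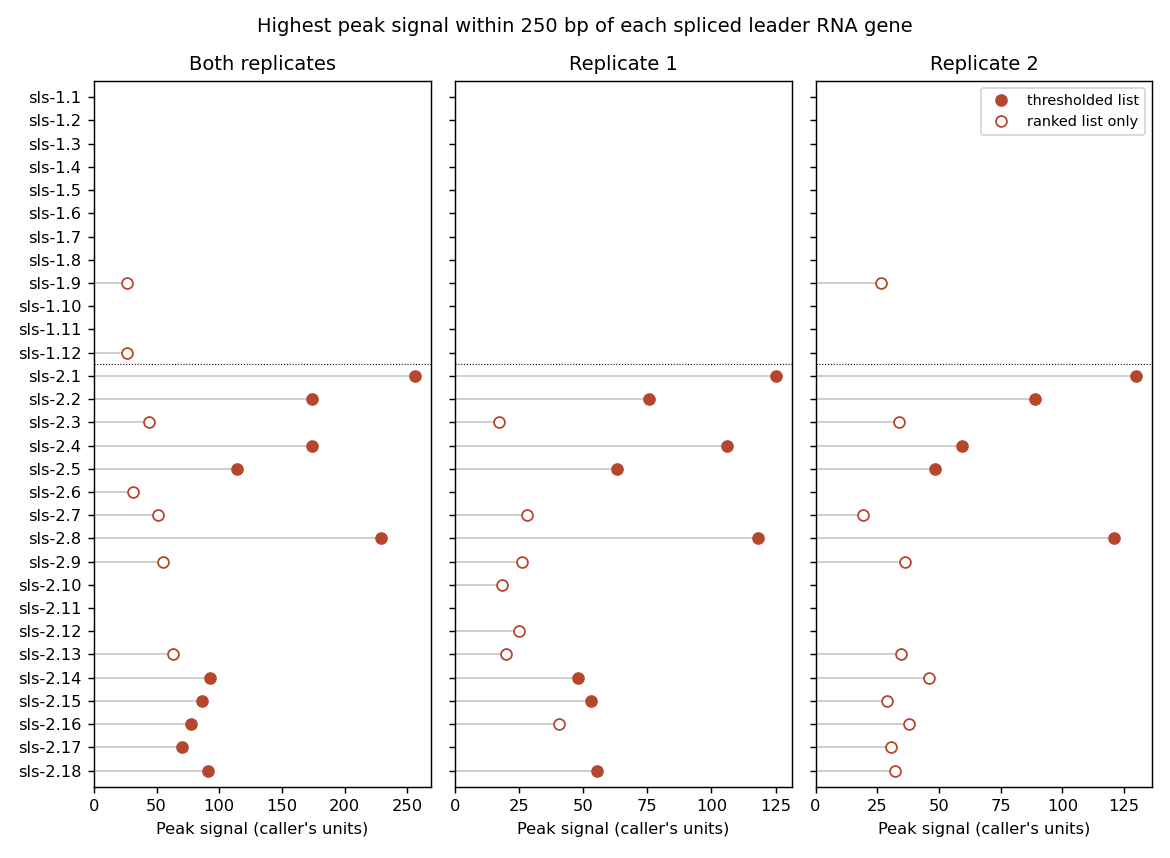
Highest peak signal within 250 bp (horizontal axis, units of the peak caller, a separate scale in each panel) for each of the 30 genes, in the lists of both replicates, replicate 1 and replicate 2. Filled points passed the threshold of that list, open points appear in the ranked list only, and a gene with no point had no summit. The sites at sls-2.1 and sls-2.8 lie farthest to the right in each panel, and SL1 genes have at most an open point under 30.

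Of the 10 called sites, 8 lay above the median signal of the whole list (78.6), and the median of the 10 was 104. For the 16 other snRNA genes with a called peak the median signal was 90.3 (57.8 to 213). Across the 9 called SL2 genes with a summit in each replicate, the ratio of replicate 1 to replicate 2 ran from 0.851 to 1.85 (median 1.07), with 6 of 9 above 1. Over the 1508 peaks of the whole list matched in both replicates within 100 bp, the median ratio was 1.05 and 55.5% were above 1.

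The other 8 SL2 genes did not reach the threshold. The nearest to it was sls-2.13, with a signal of 20.1 in replicate 1 and 34.6 in replicate 2, and 63.3 with a score of 785 in the ranked list of both, while the weakest called site, at sls-2.17, had 70.5. In the same ranked list sls-2.9 stood at 55.0, sls-2.7 at 51.2, sls-2.3 at 44.2 and sls-2.6 at 31.3, with scores between 177 and 589. For sls-2.10 and sls-2.12 the ranked list of replicate 1 alone held a summit, with signals of 18.3 and 25.0, and for sls-2.11 no list held any.

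Ranked lists are long and hold many weak calls, so their background is high. A ranked summit was found in the list of both replicates at 15 SL2 genes and 2 SL1 genes (17 of 30, 56.7%). That is close to the share of all annotated genes, 53.9%, while other genes of at most 200 bp stood at 29.5%. For replicate 1 it was 15 SL2 genes and 0 SL1 genes, against 17.1%, and for replicate 2 it was 14 SL2 genes and 1 SL1 gene, against 18.1%. Other small RNA genes stood near SL2 genes in the ranked list of both replicates, with a summit at 83.8% of tRNA genes, 79.2% of snoRNA genes and 73.7% of other snRNA genes, against 83.3% of SL2 genes. For 5S ribosomal RNA genes it was 37.5% (6 of 16). A summit in both ranked lists of the replicates was found at 13 of 30 genes, all of them SL2 genes, against 9.19% of other genes of at most 200 bp. The share of all annotated genes with this was not counted, and can be at most 39.9%. At each of these 13 genes the peaks of the replicates overlapped by at least 50% of the shorter.

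Summits lay on or just before the RNA. Positions are counted from the annotated RNA start, positive along the RNA. In the list of both replicates 7 of 10 summits fell inside the RNA, between 29 and 107 bp, and 3 fell before it, at -22 bp for sls-2.1, -38 bp for sls-2.8 and -52 bp for sls-2.5. The median was 40.5 bp. For the 16 other snRNA genes the median was 8.5 bp (-77 to 140).

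In the list of both replicates the 4 strongest sites had the narrowest peaks. The peak was 224 bp wide at sls-2.1, 162 bp at sls-2.8, 103 bp at sls-2.4 and 75 bp at sls-2.2, against 290 bp at each of the other 6. The single replicates did not show this difference. There the strongest peak at every called gene with a summit was 270 bp wide in replicate 1 and 256 bp in replicate 2. The summits of the replicates lay 27 bp apart at sls-2.1, 18 bp at sls-2.8, 12 bp at sls-2.2, 17 bp at sls-2.4 and 11 bp at sls-2.5. At sls-2.14 they lay 23 bp apart, and at sls-2.15, sls-2.16 and sls-2.18 the gaps were wider, at 83, 84 and 59 bp. Over the 9 genes the median gap was 23 bp. At sls-2.1, sls-2.8 and sls-2.5 each replicate placed the summit before the RNA, and at the other 6 genes each replicate placed it after the RNA start.

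**Figure D3:**
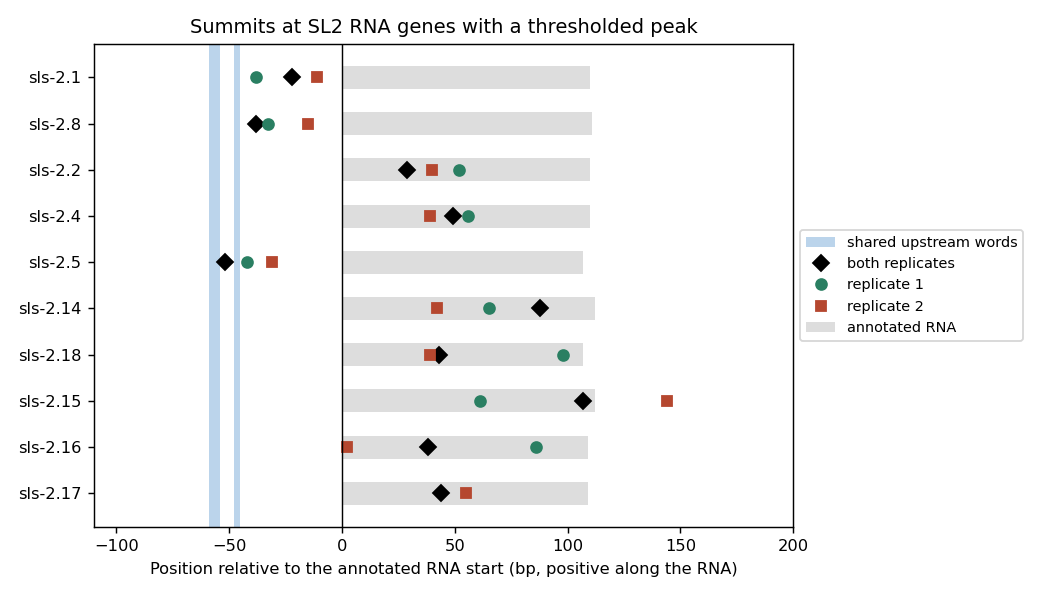
Position of the summit with the highest signal (horizontal axis, bp from the annotated RNA start) at the 10 SL2 genes with a called peak, ordered from the highest signal down. Diamonds stand for the list of both replicates, circles for replicate 1 and squares for replicate 2, grey bars for the RNA and blue bands for the places of the shared upstream words. The summits at sls-2.1, sls-2.8 and sls-2.5 lie before the RNA, and sls-2.17 has no circle because replicate 1 had no summit there.

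The stretch before the RNA was compared between called and other genes, since it is where promoters of this type carry their proximal sequence element. The letters below cover positions -69 to -39, 5′ to 3′ in the sense of the RNA. Capitals mark the same places in each gene, positions -59 to -54 and -48 to -45, where the words most often shared by SL2 genes stood. The first 5 genes had a called peak and the last 5 had none.
sls-2.1: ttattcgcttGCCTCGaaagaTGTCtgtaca
sls-2.2: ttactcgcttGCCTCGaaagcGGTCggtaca
sls-2.8: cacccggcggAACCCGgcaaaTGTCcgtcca
sls-2.14: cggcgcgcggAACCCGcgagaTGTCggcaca
sls-2.17: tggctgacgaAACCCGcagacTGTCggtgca
sls-2.3: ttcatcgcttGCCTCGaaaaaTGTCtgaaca
sls-2.12: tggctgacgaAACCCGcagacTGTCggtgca
sls-2.13: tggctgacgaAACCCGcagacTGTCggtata
sls-2.10: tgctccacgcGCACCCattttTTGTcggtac
sls-1.10: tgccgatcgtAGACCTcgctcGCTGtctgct

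Words were sought on the strand of the RNA within 1 base of these places, and were chosen after the sequences and peaks had been seen. Near-identical copies share these bases, so the genes are not independent of each other. The word AACCCG stood at -59 in 10 of 18 SL2 genes, against 0.0982% of the 46856 other genes. It was there in 7 of 10 genes with a called peak and in 3 of 8 without. The word GCCTCG stood at the same place in the 4 genes that share the leader of sls-2.1, against 0.00854% of other genes. All 10 genes with a called peak had 1 of these 2 words, and so did 4 of the 8 without, namely sls-2.3, sls-2.7, sls-2.12 and sls-2.13. The genes with neither were sls-2.6, sls-2.9, sls-2.10 and sls-2.11.

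The word TGTC stood at -48 in 15 of 18 SL2 genes, 9 of 10 with a called peak and 6 of 8 without, against 1.18% of other genes. Anywhere in the 100 upstream bases and on either strand, AACCCG was found in 10 SL2 genes and in 1.68% of other genes, and GCCTCG in 5 and in 0.875%. TGTC was found in all 18 in this wider search, but also in 39.9% of other genes. Counted from the annotated start, none of the 3 words stood at these places in SL1 genes. However, the SL1 annotations of 98 bases begin 1 base before the leader, and counted from the leader their TGTC lies within 1 base of -48. The annotated starts of sls-1.1 and sls-1.5 lie after the leader, so their places cannot be compared. Among the 99 other snRNA genes, AACCCG stood at -59 in 13, of which 4 had a called peak (30.8%), against 12 of the 86 without the word (14.0%). For TGTC at -48 the order was opposite, with a peak at 3 of 30 genes (10%) against 13 of 69 (18.8%). Over all other genes, these snRNA genes included, both words went with the higher share. It was 21.7% (10 of 46) against 4.11% for AACCCG and 6.14% (34 of 554) against 4.10% for TGTC. Gene class was not matched in this comparison, and small RNA classes have higher shares than all genes, as given above.

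Some copies that are alike in sequence differed in signal. The RNAs of sls-2.2 and sls-2.3 differ by 3 edits (97.3% identical) and those of sls-2.1 and sls-2.3 by 8 (92.7%), with upstream identities of 70.0% and 75.0%. In the ranked list of both replicates sls-2.1 stood at 256, sls-2.2 at 174 and sls-2.3 at 44.2. In replicate 1 the 3 values were 125, 75.7 and 17.3, and in replicate 2 they were 130, 89.0 and 33.8, so sls-2.3 was lowest in each. On chromosome IV, sls-2.17 and sls-2.12 are 96.0% identical over the 100 upstream bases and 93.6% in the RNA, yet the list of both replicates held a called peak at sls-2.17 (70.5) and no summit at sls-2.12. The difference there rests on weak calls, since sls-2.12 had a summit in replicate 1 alone (25.0) and sls-2.17 in replicate 2 alone (30.7). The divergent pair sls-2.14 and sls-2.15, with 92.9% identity in the RNA and 84.0% upstream, had signals of 92.9 and 86.6 in the list of both. Their order was opposite in the replicates, at 48.2 and 53.2 in replicate 1 and 45.8 and 28.8 in replicate 2.

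By position in the genome, all 6 SL2 genes on chromosome III had a called peak, against 2 of 3 on II, 1 of 4 on I and 1 of 5 on IV. The other snRNA, tRNA and snoRNA genes had a called peak in 22.7% to 24.0% of cases on each of these 4 chromosomes. Of the 7 SL2 genes in an intron of a protein-coding gene 5 had a called peak, and of the 11 between genes also 5. In the glutamate receptor gene glr-2, sls-2.5 (chrIII:7140447-7140553, minus strand), sls-2.16 (chrIII:7141391-7141499, plus strand) and sls-2.18 (chrIII:7142291-7142397, plus strand) each had a peak. In an intron of W09D6.5 the divergent pair sls-2.14 (chrIII:11090412-11090523, minus strand) and sls-2.15 (chrIII:11091010-11091121, plus strand) had 1 each.

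Promoters of protein-coding genes lay close to few of these sites. The summit at sls-2.8 was 233 bp from the 5′ end of Y75B8A.23, so a site of that promoter cannot be told apart from 1 of the RNA gene. The other 9 summits were 666 to 3151 bp from the nearest protein-coding 5′ end, the closest being egg-5 for sls-2.4, ZK1248.17 for sls-2.1 (698 bp) and msp-65 for sls-2.17 (801 bp). The protein-coding genes nep-25 and R12E2.11 extend to within 250 bp of the summits at sls-2.1 and sls-2.4. Annotated ncRNA genes lay within 250 bp of the summits at sls-2.2, sls-2.4, sls-2.8, sls-2.16 and sls-2.18.

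SL1 genes had no called peak, and their sequence is repeated. From 250 bp before to 250 bp after each RNA, no stretch of 50 bases occurred only once in the assembly for 9 of the 12 SL1 genes. The other 3 were sls-1.9 (1.46% of stretches), sls-1.10 (9.11%) and sls-1.12 (31.5%). For SL2 genes the share of stretches that occur once was 80.0% to 100%, with a median of 96.7% for the 10 with a called peak and 94.6% for the 8 without. Within the RNA alone all stretches occurred once for 10 SL2 genes, and 50.8% to 96.7% for the other 8. The lowest were sls-2.1 and sls-2.3 (50.8% each) and sls-2.2 (65.6%), whose signals are compared above. In the other compared pair, sls-2.12 had 78.7% within the RNA and 80.0% with the flanks, against 100% and 94.1% at sls-2.17. The part of repeated sequence in the signals of these genes was not tested. Neither the read length nor the treatment of reads that match several places is given in the sources used here. The part of repeated sequence in the absence of SL1 peaks was not tested.

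**Figure D4:**
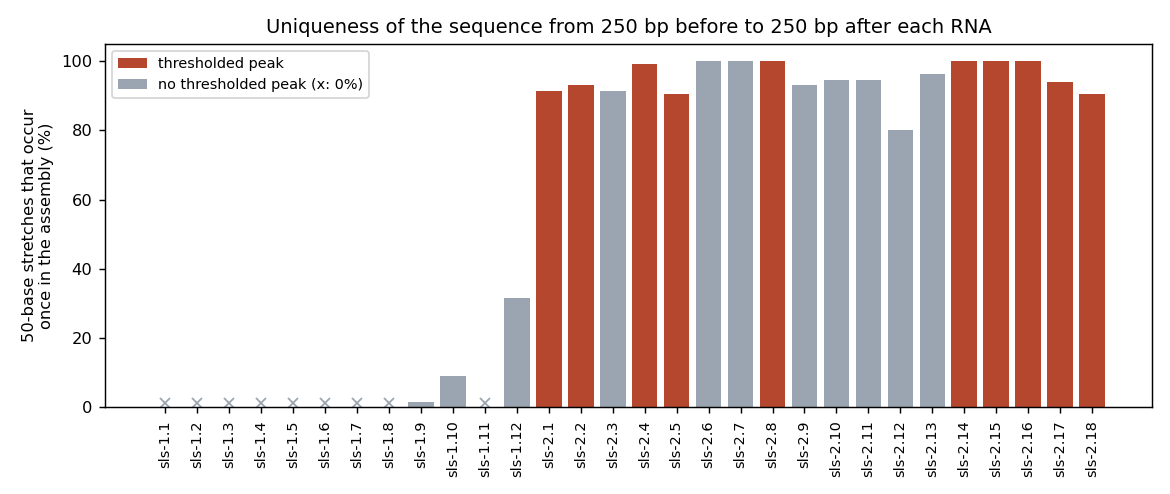
Percentage of 50-base stretches that occur once in the assembly (vertical axis), from 250 bp before to 250 bp after each of the 30 RNAs. Red bars are genes with a called peak, grey bars genes without, and crosses mark 0. SL1 genes lie between 0 and 31.5% and SL2 genes between 80.0% and 100%.

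The SL1 array itself was not empty in the ranked lists. The 12 genes span 13954 bp (chrV:17118154-17132107), where the ranked list of both replicates held 9 summits and the thresholded list 0. The strongest had a signal of 124 and a score of 1000 (chrV:17122068-17122357). It was found in replicate 1 with a signal of 51.2 and a score of 823 and in replicate 2 with 69.1 and 1000, with summits 1 bp apart. Its summit was 437 bp from sls-1.9 and 151 bp from the nearest 5S rRNA gene. It is 1 of 73 peaks that reached the score of the threshold in the ranked list of both replicates without being in the thresholded list, for a reason not given in the sources used here. The ranked summits within 250 bp of an SL1 gene were weaker, 26.3 at sls-1.9 and 26.4 at sls-1.12, at ranks 29406 and 29139 of 95095, and the other 10 SL1 genes had none in any list.

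Genes for proteins that act on spliced leader RNAs were taken as a list of 35, which held the proteins of the SL ribonucleoprotein, Sm proteins, SNAP complex subunits, the Integrator complex, cap-binding proteins and related factors. A peak was assigned to 4 of them (11.4%), against 4.76% of the 19973 protein-coding genes. At snpc-3.4, a gene for a SNAP complex subunit, the signal was 182, with the summit 73 bp from the 5′ end. The Integrator complex, which processes the 3′ ends of small nuclear RNAs, had peaks assigned at ints-4 (154, 40 bp) and at ints-8 (240, 881 bp). At sna-3, a gene for a trans-splicing factor, the signal was 73.0 at 241 bp. No peak was assigned to sna-1, sna-2, sut-1, snpc-4 or any of the 7 Sm protein genes snr-1 to snr-7.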

How the data were processed

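Per the file headers, the authors deposited lists of peaks called on ce11. Every replicate had a ranked list and a thresholded list. Calls made on both replicates came as thresholded and conservative lists, with a separate ranked list going with each. The ranked list that goes with the thresholded list has 95095 peaks, and the shorter one has 86749. Where the text names the ranked list of both replicates without further detail, the longer one is meant. Each list gives the signal of the authors' peak caller and a score for every peak, and the deposited score follows the irreproducible discovery rate. No source used here names the aligner or the peak caller. Peak lists hold no read totals, so depth is unknown and no interval was computed. Chromosome lengths of WBcel235 were checked against the lists.

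Summits were read as start plus offset and matched to annotated RNAs (Ensembl release 115) within 250 bp. For protein-coding genes, each peak went to the closest transcript 5′ end, up to 1000 bp away. Assignment was tested on simulated summits. Identity is 100% minus edits over the longer length. The 50-base stretches were matched exactly on both strands. The members, gene lists and words were chosen with earlier results of these data known, so no test was run, and every called member is named. Alternatives were the list, distance, threshold, overlap and replicates. Python 3.11.15, numpy 2.4.6, pandas 2.3.3, pysam 0.24.0 and matplotlib 3.10.9 were used.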

Additional observations from a re-analysis of the deposited data

How the results depend on the processing

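The 10 SL2 genes with a summit remained 10 with a distance of 100 or 500 bp, with the distance taken from the RNA start, with the highest score alone and when distinct peaks were counted, and the count was 9 with the conservative list. The ranked list of both replicates gave 17 spliced leader genes (56.7%, against 53.9% of all annotated genes), of which 2 were SL1 genes. Without replicate 1 or replicate 2 the count, all SL2, lay between 5 and 8, and SL1 genes stayed at 0. The median summit position was 61.0 bp over the 15 SL2 genes with a ranked summit in replicate 1 and 39.0 bp over the 14 in replicate 2, against 40.5 bp over the 10 called genes. Over the 9 called genes with a summit in each replicate it was 56.0, 39.0 and 38.0 bp in replicate 1, replicate 2 and the list of both. A thresholded peak in each replicate was found at 5 genes, against 13 with ranked summits. Of other genes of at most 200 bp, at most 0.773% and 9.19% had these. Of all annotated genes, at most 1.7% and 39.9% can have them. Of the 35 pathway genes, 9 had a peak when every 5′ end within 1000 bp was counted, against 4, while the share of all protein-coding genes was 6.46% against 4.76%. The conservative list gave 6 (4.37% of all) and either replicate alone 3 (2.17% of all). No paired analysis was possible because there was 1 group. Unknown depth, 2 replicates and no control library limit all values, and near-identical copies limit those at SL1 genes and at SL2 genes with repeated bases in the RNA, sls-2.1, sls-2.2 and sls-2.3 among them.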

Other observations

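A further copy, sls-2.19 (chrIV:5264907-5265021, plus strand), is named as a pseudogene by RefSeq and was not among the 30 genes. The thresholded list of both replicates held no peak there. The conservative list held 2, the stronger with a signal of 68.5 and a score of 930, its summit 143 bp after the annotated start. The longer ranked list of both replicates gave that peak a score of 193. That ranked list goes with the thresholded list and not with the conservative list. The highest summit of replicate 1 lay at 224 bp, with a signal of 34.9, and that of replicate 2 at -33 bp, with 31.6.

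A second, weaker summit lay within 250 bp of 4 SL2 genes in the ranked list of both replicates. Their signals were 52.0 at sls-2.4 (258 bp after the RNA start), 39.4 at sls-2.2 (231 bp), 11.7 at sls-2.18 (242 bp) and 11.0 at sls-2.9 (115 bp). The second summit at sls-2.4 passed the threshold in replicate 2, with a signal of 30.5 and a score of 928. That at sls-2.18 had a score of 1000 in the conservative list and in the shorter ranked list of both replicates that goes with it. In the longer ranked list of both replicates, which goes with the thresholded list, its score was 72.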
